A study of Homo sapiens with 58 samples.

Results

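HIF1A, the oxygen-regulated transcription factor subunit, and VEGFA, the secreted growth factor that is one of its best known target genes, were followed through a map of RNA contacts of HuR. The map was made by CLIP, in which ultraviolet light joins a protein to the RNA it touches and the RNA stubs recovered with that protein are sequenced. All peaks of the combined peak table that carry either gene name were taken, 73 of 387214 peaks. HIF1A (ENSG00000100644) has 63 of them and VEGFA (ENSG00000112715) has 10, and each peak is 20 nt long.

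HuR (ELAVL1) is an RNA-binding protein that shuttles between nucleus and cytoplasm and binds U-rich and AU-rich stretches, often in 3'UTRs, where it is best known for stabilising short-lived mRNAs. HIF1A protein is degraded when oxygen is present, through prolyl hydroxylation by EGLN enzymes and capture by VHL, and when it escapes it pairs with ARNT and switches on genes of glycolysis, iron uptake and blood vessel growth. VEGFA mRNA has an AU-rich 3'UTR, and both mRNAs are textbook examples of HuR-bound transcripts. Sodium arsenite is an oxidative stressor that halts translation and makes cells assemble stress granules, in which G3BP1 is a core protein.

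The cells were Huh-7.5, a line derived from human hepatocellular carcinoma, and every library was made with the HuR antibody 3A2 after ultraviolet doses of 400 and 200 mJ/cm2. Treatment was either mock or sodium arsenite at 0.5 mM over 45 min. The 12 fraction libraries come from cells of WT genotype with no APEX reaction, as nuclear or cytoplasmic fractions of mock or arsenite cells, 3 libraries each. The other 46 come from cells of genotype APEX-NLS, APEX-NES or APEX-G3BP1, mock or arsenite, all put through the APEX reaction (0.5 mM biotin phenol for 30 min, then 1 mM hydrogen peroxide for 1 min), either as input or enriched by streptavidin for HuR complexes near the peroxidase. The labels do not say how the APEX lines were made, whether a line is a single clone, or whether libraries of a group came from separate cultures, so p-values measure the spread between these libraries, which may be technical.

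Values are given as CPM, the HuR tags (sequenced RNA fragments) in a peak per 1000000 tags of that library's total. The fraction libraries hold 235471 to 673322 tags in peaks, so that 1 tag is worth 0.568 to 1.46 CPM and 3 tags, the limit that a count of 0 allows, 1.71 to 4.37 CPM. The input libraries hold 1353 to 484305 tags in peaks and the enriched libraries 519 to 86419. Among markers of liver cells, 6 of 8 genes had tags in the fraction libraries, summing to 654 to 2520 CPM, while APOA1 and TTR were at 0; 1 of 5 fibroblast markers (0 to 1.6 CPM) and 2 of 5 leukocyte markers (2.40 to 21.1 CPM) had any. The nuclear RNAs MALAT1 and NEAT1 summed to 2788 to 3124 CPM in nuclear and 2265 to 2829 CPM in cytoplasmic mock libraries, and to 3028 to 3879 and 2603 to 3584 CPM after arsenite, so their tag levels overlapped between the fractions; the part of this in the differences below was not tested. A tag count rises with more HuR on each RNA and with more of that RNA in the sample, and these cannot be told apart here.

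HIF1A lies on the plus strand of chromosome 14 (RefSeq gene 61695513 to 61748258, GRCh38.p14) and VEGFA on the plus strand of chromosome 6 (43770211 to 43786487). Of the 63 HIF1A peaks, 33 are intronic, between 61696505 and 61733694. A further 12 are labelled ncRNA, between 61734345 and 61746867, and all 12 also overlap an intron annotation. The 3'UTR holds 11 peaks between 61747105 and 61748209, the coding sequence (CDS) 5, the 5'UTR 1 and the class Other 1. All 11 HIF1A 3'UTR peaks also carry lncRNA and intron annotation, so their tags cannot be assigned to 1 transcript. VEGFA has 7 peaks in its 3'UTR, between 43784886 and 43786421, 2 in its 5'UTR, 1 in its CDS and none of the intron class. The CDS peak also overlaps an intron annotation, and all 10 VEGFA peaks also carry a retained-intron label.

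HuR tags were spread differently over the 2 transcripts. In the fraction libraries HIF1A collected 965 tags, 486 of them intronic (50.4%), 302 in the 3'UTR (31.3%) and 109 in the ncRNA class (11.3%). VEGFA collected 195 tags, 139 of them in the 3'UTR (71.3%), 29 in the 5'UTR and 27 in the CDS. Over all 58 libraries the totals were 1502 tags for HIF1A and 346 for VEGFA.

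In unstressed cells, HuR tags on the HIF1A 3'UTR were several times higher in the cytoplasmic than in the nuclear fraction. The summed 3'UTR peaks stood at 7.29, 6.36 and 5.79 CPM in the nuclear mock libraries (6.48 ± 0.75, SD, n = 3) and at 27.7, 38.7 and 30.6 CPM in the cytoplasmic mock libraries (32.3 ± 5.73, SD, n = 3). All 3 cytoplasmic libraries lay far above all 3 nuclear ones. The nuclear level was lower by a log2 difference of -1.97 (SE 0.25, 95% interval -2.51 to -1.44, adjusted p = 4.6e-05 by limma), a 3.92-fold difference on the log2(value + 2.28 CPM) scale, which understates the change of low values. Of all 21245 gene-and-class sums tested in this comparison 29% passed the test, and of the 3'UTR sums 49.4% passed as lower in the nucleus, with a median of -0.98. HIF1A thus shared the direction of the typical 3'UTR, and 15.2% of 3'UTR sums had a more negative difference.

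The HIF1A intron and ncRNA peaks ran the other way. Intronic sums were 51.0, 47.3 and 52.1 CPM in nuclear mock libraries and 46.8, 24.4 and 25.3 CPM in cytoplasmic mock libraries. These groups did not overlap, yet the first cytoplasmic library came within a fraction of a CPM of the lowest nuclear one, and the log2 difference of +0.66 (SE 0.24, interval 0.15 to 1.17) did not pass the test (adjusted p = 0.0506 by limma). Without that cytoplasmic library it was +0.95 and passed (adjusted p = 0.00635 by limma). The ncRNA peaks held 17.5, 8.2 and 17.4 CPM in the nuclear and 1.1, 4.1 and 3.2 CPM in the cytoplasmic mock libraries, again without overlap. Their log2 difference was +1.71 (SE 0.37, interval 0.91 to 2.51, adjusted p = 0.0035 by limma), higher than 98.5% of ncRNA sums, of which 16.2% passed as higher in the nucleus. Leaving out the first nuclear mock library took this call away (adjusted p = 0.0578 by limma). HIF1A CDS peaks, at 2.54 CPM in the nuclear and 5.58 CPM in the cytoplasmic mock libraries on average, did not pass (-0.69, adjusted p = 0.167 by limma).

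Summed over all classes these opposite differences cancelled. HIF1A as a whole had 78.7, 66.4 and 81.1 CPM in nuclear and 83.0, 77.4 and 67.5 CPM in cytoplasmic mock libraries, with interleaved values and a log2 difference of -0.01 (adjusted p = 0.961 by limma). The fractions thus differed in where on HIF1A the tags lay. The 3'UTR took 8.66% ± 1.33 (SD, n = 3; 18 of 211 tags) of HIF1A tags in nuclear mock and 42.9% ± 8.60 (SD, n = 3; 93 of 218 tags) in cytoplasmic mock libraries. The difference of -34.2 percentage points, with no overlap between libraries, had p = 0.1 in a two-sided exact permutation test, the smallest p that 3 against 3 allows (0.267 adjusted over 8 such tests).

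VEGFA 3'UTR peaks overlapped between the mock fractions. They stood at 8.74, 6.36 and 3.86 CPM in nuclear mock (6.32 ± 2.44, SD, n = 3) and 8.51, 10.2 and 17.9 CPM in cytoplasmic mock libraries (12.2 ± 5.02, SD, n = 3). The highest nuclear library exceeded the lowest cytoplasmic one. The log2 difference of -0.74 (SE 0.34, interval -1.47 to -0.0076) did not pass the test (adjusted p = 0.121 by limma). With TMM scaling of the recovered tags edgeR gave -1.29 and passed it (adjusted p = 0.0291), whereas edgeR without TMM (-0.997, adjusted p = 0.0942) did not. As a share of all VEGFA tags, the 3'UTR took 55.9% ± 11.5 (SD, n = 3; 17 of 32 tags) in nuclear mock and 80.4% ± 6.66 (SD, n = 3; 35 of 43 tags) in cytoplasmic mock libraries, again without overlap (p = 0.1, exact permutation test, the smallest possible; 0.267 adjusted).

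**Figure D1:**
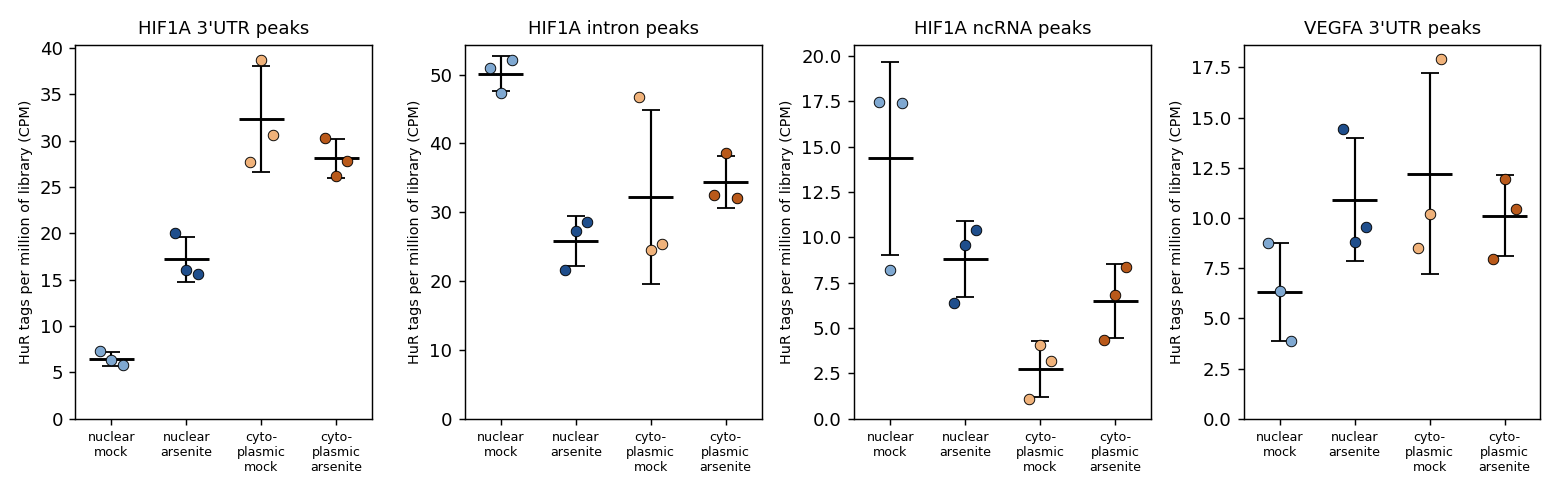
HuR tags as CPM (linear axis from 0) in the HIF1A 3'UTR, intron and ncRNA peaks and the VEGFA 3'UTR peaks. Each dot is 1 fraction library, the line is the mean and the bars are the SD of 3 libraries. HIF1A 3'UTR peaks rise from a mean of 6.48 CPM in nuclear mock to 17.2 CPM in nuclear arsenite, while HIF1A intron peaks go from 50.1 to 25.8 CPM.

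In nuclear libraries, HuR tags on HIF1A were more numerous in the 3'UTR and less numerous in introns after arsenite. The nuclear 3'UTR sum rose from 7.29, 6.36 and 5.79 CPM to 20.02, 16.0 and 15.6 CPM (17.2 ± 2.45, SD, n = 3), with every arsenite library above every mock library. The log2 difference was +1.15 (SE 0.25, interval 0.62 to 1.68, adjusted p = 0.0116 by limma), 2.22-fold on the same scale. In this comparison 6.13% of all sums passed, and 13.8% of 3'UTR sums passed as higher, with a median 3'UTR difference of 0.39; 88.5% of 3'UTR sums lay below HIF1A. The call rests on few tags, 18 in mock and 63 in arsenite libraries. It was lost when any 1 of the 3 nuclear arsenite libraries was left out (adjusted p = 0.0727 to 0.105 by limma, with differences of 1.05 to 1.21 over all single omissions), and DESeq2 gave +1.41 with adjusted p = 0.0718.

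Intronic HIF1A peaks in the nucleus fell over the same 45 min. From 51.0, 47.3 and 52.1 CPM in mock they came to 21.6, 27.2 and 28.6 CPM in arsenite libraries (25.8 ± 3.69, SD, n = 3), with a wide gap between the groups. The log2 difference was -0.91 (SE 0.17, interval -1.27 to -0.55, adjusted p = 0.00413 by limma), a 1.88-fold decrease. Few intron sums behaved this way: 2.65% passed as lower, the median was -0.11, and 2.92% had a more negative difference. Without the third nuclear arsenite library the adjusted p was 0.0617 by limma. The ncRNA peaks, at 14.3 CPM in mock and 8.80 CPM in arsenite on average, overlapped and did not pass (-0.55, adjusted p = 0.334 by limma), nor did the CDS peaks (-0.78, adjusted p = 0.160 by limma).

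Because the intronic loss outweighed the 3'UTR gain, nuclear HIF1A over all classes was lower after arsenite, at 50.4, 54.4 and 54.6 CPM, than in mock (log2 difference -0.48, adjusted p = 0.0329 by limma). The share of all gene totals that passed is not given here, so this fall cannot be placed among other genes. The 3'UTR share of nuclear HIF1A tags was 32.6% ± 6.19 (SD, n = 3; 63 of 194 tags) after arsenite, 23.9 points above mock, with no overlap (p = 0.1, exact permutation test, the smallest possible; 0.267 adjusted).

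Cytoplasmic HIF1A levels did not pass the test for a change. Cytoplasmic 3'UTR sums were 30.3, 26.2 and 27.8 CPM after arsenite (28.1 ± 2.10, SD, n = 3), inside or just below the mock range of 27.7 to 38.7 CPM. The log2 difference was -0.18 with an interval of -0.60 to 0.25 (adjusted p = 0.622 by limma), in a comparison in which 13.3% of all sums passed and 18.6% of 3'UTR sums passed as lower. Intronic sums of 32.5, 38.7 and 32.0 CPM lay within the mock range (+0.14, adjusted p = 0.754 by limma). The ncRNA sums of 4.3, 6.8 and 8.3 CPM were above all mock libraries (+0.82) without passing (adjusted p = 0.144 by limma).

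The arsenite difference of HIF1A therefore depended on the fraction, and that dependence was tested as an interaction over all 12 libraries. For the 3'UTR the nuclear minus cytoplasmic difference of the arsenite response was +1.33 on the log2 scale (SE 0.35, interval 0.63 to 2.02, adjusted p = 0.00497 by limma), and it passed with any 1 library left out (adjusted p 0.00353 to 0.0241 by limma). For introns it was -1.05 (SE 0.30, adjusted p = 0.0131 by limma), and for the ncRNA class -1.37 (SE 0.46, adjusted p = 0.0418 by limma). Of all sums 11% passed the interaction test; 24.2% of 3'UTR sums passed with a positive sign, 9.37% of intron sums and 5.4% of ncRNA sums with a negative one. The intron call was lost without nuclear arsenite library 1 (adjusted p = 0.0643 by limma), cytoplasmic mock library 2 (0.0759) or 3 (0.0589) or cytoplasmic arsenite library 2 (0.0789), and in DESeq2 (-0.84, adjusted p = 0.114). The ncRNA call was lost in 9 of 12 single omissions.

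After arsenite the 2 fractions were closer. HIF1A 3'UTR sums were still lower in all 3 nuclear than in all 3 cytoplasmic arsenite libraries, by -0.65 on the log2 scale (SE 0.19, interval -1.04 to -0.25), but this did not pass the test (adjusted p = 0.0517 by limma); edgeR gave -0.70 and passed it (adjusted p = 0.0485). In this comparison 4.99% of all sums passed and 9.89% of 3'UTR sums passed as lower. Introns (-0.39, adjusted p = 0.248 by limma) and ncRNA peaks (+0.34, adjusted p = 0.586 by limma) did not pass. In order of level, the HIF1A 3'UTR thus ran from nuclear mock over nuclear arsenite to cytoplasmic arsenite and cytoplasmic mock, and the last 2 overlapped.

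VEGFA passed no test of this kind. Its 3'UTR stood at 14.4, 8.80 and 9.53 CPM in nuclear arsenite libraries (10.9 ± 3.05, SD, n = 3), all above the nuclear mock libraries, though barely. The log2 difference was +0.63 (SE 0.31) with an interval of -0.02 to 1.29 (adjusted p = 0.257 by limma), so a rise about as large as that of HIF1A is within its error. In the cytoplasm it had 7.94, 11.9 and 10.4 CPM after arsenite (10.1 ± 2.02, SD, n = 3), overlapping the mock range (-0.19, interval -0.79 to 0.42, adjusted p = 0.737 by limma). Nuclear and cytoplasmic arsenite libraries overlapped (+0.08, interval -0.45 to 0.61, adjusted p = 0.911 by limma), and the interaction was +0.82 with an interval of -0.04 to 1.67 (adjusted p = 0.248 by limma). Of all 3'UTR sums 65.3% lay below VEGFA for arsenite in the nucleus (median 0.39) and 58.4% for the interaction (median 0.63). In mock fractions 60.6% lay below it (median -0.98). In order of level, VEGFA ran from nuclear mock over cytoplasmic arsenite and nuclear arsenite to cytoplasmic mock, and each group overlapped the next in this order. Its 5'UTR and CDS peaks stayed at mean levels between 1.40 and 3.04 CPM in all 4 fraction groups, near the worth of 3 tags.

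Whether the 2 transcripts differed from each other was asked with the log2 ratio of their 3'UTR sums in each library, a test chosen after the values were seen. Relative to VEGFA, HIF1A was 1.23 log2 units further towards the cytoplasm in mock libraries and 0.73 further after arsenite. In the nucleus its arsenite difference was 0.52 larger. In each of these 3 comparisons the libraries of the 2 groups did not overlap and the exact permutation test gave p = 0.1, the smallest possible (0.133 adjusted over 4 tests). In the cytoplasm the arsenite differences of the 2 genes were 0.0085 apart (p = 1, exact permutation test).

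**Figure D2:**
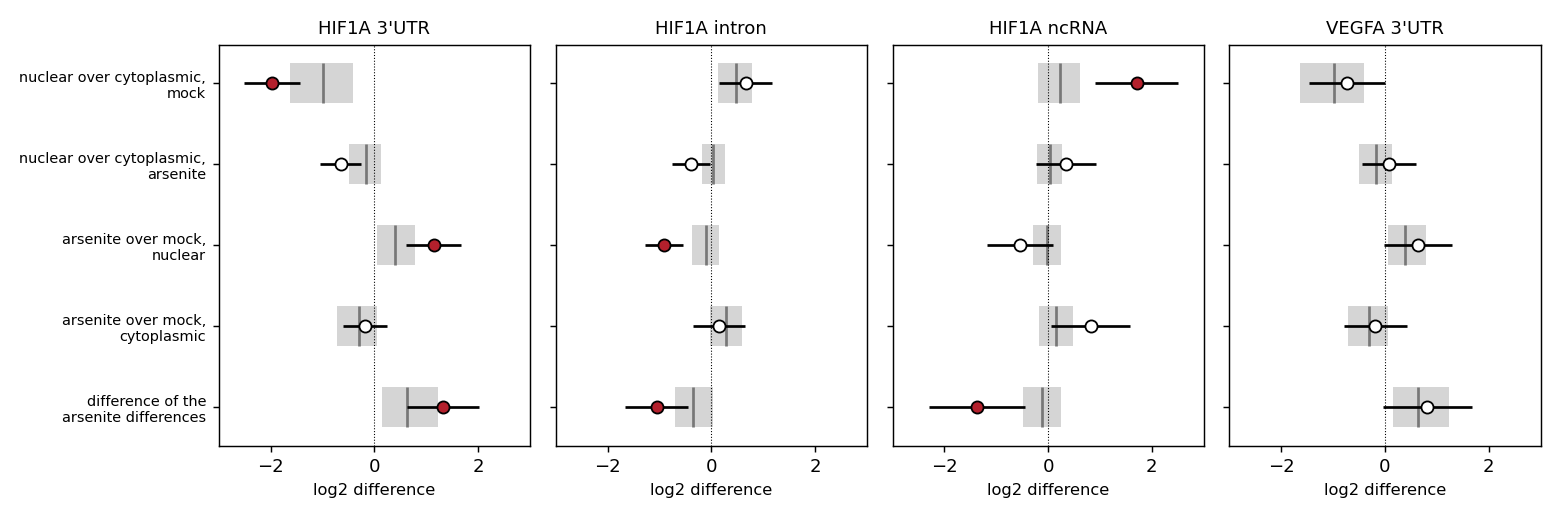
Log2 differences between fraction groups (x axis, log2 of CPM plus 2.28) for HIF1A 3'UTR, intron and ncRNA peaks and VEGFA 3'UTR peaks, with 95% intervals. Filled red points passed limma's test at an adjusted p of 0.05, open points did not, and the grey bar and line give the quartiles and median of all sums of that class. HIF1A 3'UTR peaks pass in 3 of 5 comparisons, at -1.97, +1.15 and +1.33, and VEGFA in none.

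Single peaks carried few tags, and most could not be told apart from their own spread. Of the 73 peaks, 45 were tested for nuclear against cytoplasmic mock, 52 for the same under arsenite, 50 for arsenite in the cytoplasm and 43 for arsenite in the nucleus; the rest were at 0 in too many libraries. Over all peaks of the table these comparisons called 2.82%, 0.257%, 0.76% and 0.186% of those tested, shares that moved widely when 1 library was left out (0 to 16620 calls in place of 4437 in the first). Of the peaks of both genes 2 passed limma's test in the first comparison and none in the others, where 4, 5 and 8 had an unadjusted p under 0.05.

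One of the called peaks is in the HIF1A ncRNA class, at chr14:61741235-61741255. It had 7.29, 3.64 and 5.79 CPM in nuclear mock and no tag in any cytoplasmic mock library. It entered that test only through the 3 libraries in which it was high, so its difference is a description and the call supports nothing. After arsenite it held 4.0, 1.6 and 3.47 CPM in the nucleus and 0.722, 0.568 and 2.09 CPM in the cytoplasm. The other, at chr14:61747643-61747663, is the second-highest peak of the 3'UTR and lies 595 nt before the RefSeq end of HIF1A. It had 1.46, 0.909 and 1.93 CPM in nuclear and 9.57, 6.11 and 6.33 CPM in cytoplasmic mock libraries (log2 difference -1.36, interval -2.04 to -0.69, adjusted p = 0.0444 by limma). This call is fragile: leaving out any 1 of the 6 libraries ended it (adjusted p 0.0576 to 0.180 by limma).

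The highest peak of either gene, at chr14:61747397-61747417 in the HIF1A 3'UTR, 841 nt before the gene end, had its highest values in cytoplasmic arsenite libraries. It had 2.91, 0.909 and 0 CPM in nuclear mock, 8.81, 4.0 and 5.20 CPM in nuclear arsenite, 3.19, 7.13 and 7.38 CPM in cytoplasmic mock and 15.9, 14.2 and 15.3 CPM in cytoplasmic arsenite libraries. In the cytoplasm every arsenite library thus lay well above the highest mock library. The log2 difference of +1.13 in the cytoplasm (interval 0.48 to 1.79, adjusted p = 0.0691 by limma) and of +1.26 in the nucleus (interval 0.45 to 2.07, adjusted p = 0.210 by limma) did not pass the test over all peaks. The other 10 peaks of the 3'UTR together went from 26.4 ± 4.52 CPM (SD, n = 3; 76 tags) in cytoplasmic mock to 13.0 ± 1.31 CPM (SD, n = 3; 59 tags) in cytoplasmic arsenite libraries.

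The share of HIF1A 3'UTR tags in this peak, a measure chosen after the values were seen, was 18.0% ± 6.31 (SD, n = 3; 17 of 93 tags) in cytoplasmic mock and 53.9% ± 1.36 (SD, n = 3; 69 of 128 tags) in cytoplasmic arsenite libraries. The groups were 35.9 percentage points apart and did not overlap. In nuclear arsenite libraries the share was 34.1% ± 9.52 (SD, n = 3). The peak was chosen as the highest over the 12 fraction libraries, a rank led by its cytoplasmic arsenite values, so these shares are a description with no test.

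Intronic peaks of HIF1A were among the next highest. The peak at chr14:61699483-61699503 averaged 6.06 CPM over the 12 fraction libraries, with a range of 2.17 to 9.66 CPM and no comparison past the test. The peak at chr14:61716611-61716631 averaged 4.59 CPM, and the one at chr14:61701488-61701508 averaged 2.74 CPM. Of the 19 intronic peaks tested for arsenite in the nucleus, 15 had a negative and 4 a positive difference, and none passed alone.

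VEGFA tags gathered close to the end of the transcript. The peaks at chr6:43786295-43786315 and chr6:43786401-43786421, 172 and 66 nt before the RefSeq gene end, averaged 3.41 and 3.24 CPM over the fraction libraries and held 45 and 48 of the 139 VEGFA 3'UTR tags. Another 3'UTR peak at chr6:43784886-43784906 averaged 1.70 CPM. The single CDS peak at chr6:43780732-43780752 averaged 1.98 CPM and the leading 5'UTR peak at chr6:43770435-43770455 averaged 1.71 CPM. In all 4 comparisons the share of VEGFA 3'UTR tags in the leading peak overlapped between groups.

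**Figure D3:**
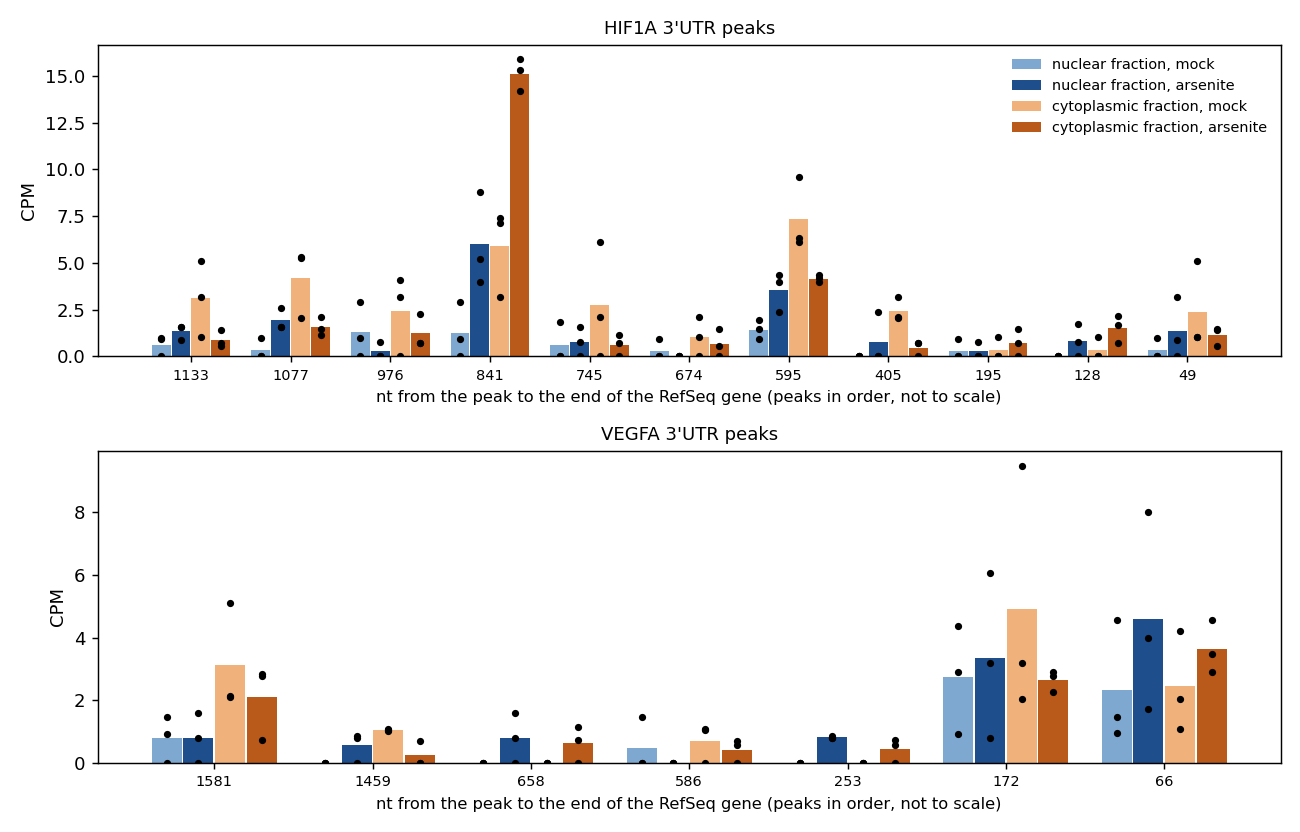
Mean CPM (bars, from 0) and single libraries (dots) of each 3'UTR peak of HIF1A and VEGFA in the 4 fraction groups, placed by distance in nt from the peak to the RefSeq gene end. The HIF1A peak 841 nt from the end has a mean of 15.1 CPM in cytoplasmic arsenite and 5.90 CPM in cytoplasmic mock libraries, while the VEGFA peaks 172 and 66 nt from the end overlap between groups.

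The input libraries, which hold HuR tags of whole APEX cells (6 of the 17 carry the word All in place of a number in their labels, whose meaning is not given, and are counted here as 1 library each), showed the same sign for both 3'UTRs without passing limma's test. HIF1A 3'UTR sums had a median of 4.28 CPM (0 to 11.1 CPM, 44 tags, n = 8) in mock and 15.7 CPM (0 to 32.6 CPM, 126 tags, n = 9) in arsenite libraries, with overlapping ranges. With line and library set in the fit the log2 difference was +1.43 (interval 0.22 to 2.64, adjusted p = 0.464 by limma); within the 3 sets it was 0.30, 2.45 and 1.56. VEGFA 3'UTR sums had a median of 0.191 CPM (0 to 9.59 CPM, 20 tags, n = 8) in mock and 7.24 CPM (0 to 22.3 CPM, 84 tags, n = 9) in arsenite libraries. Its log2 difference was +1.00 (interval 0.06 to 1.94, adjusted p = 0.474 by limma), and edgeR on the recovered tags gave +1.58 and passed (adjusted p = 0.00836). The VEGFA 3'UTR passed in 2 of 28 alternatives, edgeR being 1 of them. In this comparison limma called 0% of 11316 sums (1175 had an unadjusted p under 0.05) and edgeR called 815, and the depth of the libraries differed by more than 100-fold. Among the 3802 3'UTR sums tested the median difference was +0.47 (quartiles 0.19 and 0.81), so a positive sign was common. Of these sums 94.8% lay below HIF1A and 84.1% below VEGFA.

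In the enriched libraries the counts were so low that they are given as tags. In 5 pairs of enriched libraries in 1 set, the libraries of a pair agreed within sampling noise over their highest peaks and may be 1 library deposited as 2, so no mean ± SD is given. Near the nuclear peroxidase (APEX-NLS), HIF1A 3'UTR peaks had 0, 1, 2 and 3 tags in mock and 0, 2, 0 and 0 tags in arsenite libraries. Near the cytoplasmic one (APEX-NES) they had no tag in 4 mock libraries, which allows up to 9.74 CPM over the group's 308019 tags, and 2, 1, 0 and 0 tags after arsenite. VEGFA 3'UTR peaks had 0, 1, 0 and 1 tags in NLS mock, 1, 1, 0 and 0 in NLS arsenite, 0, 1, 0 and 0 in NES mock and 1, 0, 0 and 0 in NES arsenite libraries. No sum of either gene entered the comparison of NLS with NES in mock libraries. Under arsenite HIF1A introns did (-0.51, adjusted p = 0.761 by limma), in a comparison that called 14.1% of all sums.

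Near G3BP1 the VEGFA 3'UTR had 2 tags in 1 of 6 mock libraries and 12 tags in 5 of 7 arsenite libraries (0, 2, 2, 5, 1, 2 and 0). The log2 difference of +2.04 (interval 0.44 to 3.63) did not pass limma's test (adjusted p = 0.231), which called 0% of 2560 sums here (415 had an unadjusted p under 0.05) while edgeR called 108. Its size depends on the pseudocount, with 3.11 for one 4 times smaller and 1.11 for one 4 times larger. Of 21 alternatives 1 took it past the threshold and 20 did not. Within the 3 library sets the difference was 0.90, 4.37 and 1.07. In the first and second of these sets all 4 mock libraries were at 0, where 3 tags are worth 19.8 to 644 CPM, above every arsenite value of the same set, so these mock libraries cannot show a lower level and the values carry no test. In the second set both the mock pair and the arsenite pair also agreed within sampling noise. With each such pair counted as 1 sample the difference over all sets was 1.61 (adjusted p = 0.490 by limma). Without libraries under 2000 tags in peaks it was 1.18 (adjusted p = 0.882 by limma). Against NES arsenite libraries, the VEGFA 3'UTR in G3BP arsenite libraries had a log2 difference of +2.05, with an interval of -0.37 to 4.46 (adjusted p = 0.344 by limma; 3.12% of sums called). It was 1.22 without NES library 2, 1.53 without G3BP library 6, 2.67 without NES library 1 and 2.76 without G3BP library 7, none past the test (adjusted p 0.247 to 0.649 by limma).

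HIF1A 3'UTR peaks near G3BP1 had 0, 1, 1, 0, 0 and 5 tags in mock and 0, 13, 5, 2, 0, 1 and 0 tags in arsenite libraries (log2 difference +0.20, adjusted p = 0.933 by limma). HIF1A intron peaks had 14 tags in 3 of 6 mock libraries and 2 tags in 2 of 7 arsenite libraries, and their sum was not tested for arsenite. Against NES arsenite libraries neither the HIF1A 3'UTR (-0.41, adjusted p = 0.883 by limma) nor its introns (-1.40, adjusted p = 0.505 by limma) passed.

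**Figure D4:**
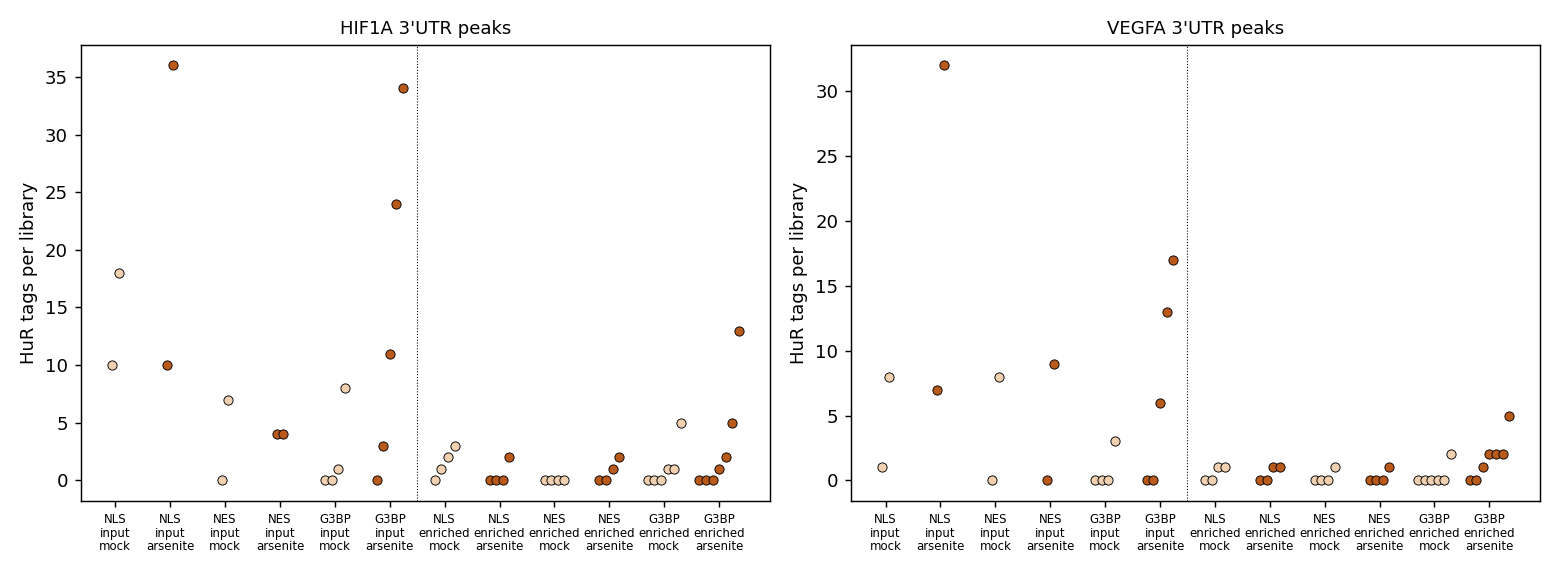
HuR tags in the 3'UTR peaks of HIF1A and VEGFA in each input and enriched library (dots; light for mock, dark for arsenite; sorted within a group and not scaled for depth), by line. VEGFA has 2 tags in 6 G3BP enriched mock libraries and 12 in 7 arsenite ones, and most enriched libraries hold under 3 tags.

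Other genes of the oxygen pathway were described with 3 lists of 52 genes, 33 of which have 3'UTR peaks. In mock libraries 17 of the 28 tested were lower in the nucleus and none higher (median -1.38), beside 49.4% lower and a median of -0.98 for all 3'UTR sums. Under arsenite 4 of 30 were lower and none higher (median -0.19), beside 9.89% lower and a median of -0.17 for all. With arsenite, 11 of 29 fell and none rose in the cytoplasm (median -0.53), beside 18.6% and a median of -0.30 for all. In the nucleus 5 of 29 rose and 1 fell (median 0.48), close to the 13.8% that rose among all 3'UTR sums (median 0.39). The interaction was positive and passed for 12 of 32 (median 1.01), beside 24.2% and a median of 0.63 for all. The nuclear count of 5 ranged from 0 to 5 when single libraries were left out, and the cytoplasmic count of 11 from 5 to 10. The nuclear count of 1 that fell ranged from 0 to 1, and the count of 4 lower under arsenite from 2 to 4.

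In the oxygen-sensing list, 9 of 12 members were lower in the nucleus in mock libraries, beside 49.4% of all 3'UTR sums. With arsenite 5 of 12 fell in the cytoplasm, beside 18.6% of all, and 4 of 12 rose in the nucleus, beside 13.8% of all. EPAS1, the HIF-2 alpha subunit and closest relative of HIF1A, had 5.96 ± 2.16 CPM in nuclear mock, 19.5 ± 2.04 in nuclear arsenite, 50.4 ± 6.23 in cytoplasmic mock and 19.03 ± 3.48 CPM in cytoplasmic arsenite libraries (SD, n = 3 each). It rose in the nucleus (+1.43, adjusted p = 0.00429 by limma) as HIF1A did, but also fell in the cytoplasm (-1.31, adjusted p = 0.00051 by limma), where HIF1A did not pass; the difference between these genes was not tested. ARNT, the partner of both alpha subunits, fell in the cytoplasm from 54.9 ± 12.02 to 10.8 ± 1.10 CPM (SD, n = 3; -2.10, adjusted p = 1.19e-05 by limma). HSP90AA1, a chaperone of HIF1A, fell there from 217 ± 60.05 to 66.1 ± 15.2 CPM (-1.66, adjusted p = 8.4e-05 by limma), and rose in the nucleus from 33.0 ± 3.26 to 54.4 ± 4.20 CPM (+0.68, adjusted p = 0.0164 by limma). VHL, the receptor of hydroxylated HIF1A, fell in the cytoplasm from 146 ± 29.8 to 67.3 ± 14.5 CPM (-1.10, adjusted p = 0.00132 by limma) and rose in the nucleus from 43.4 ± 10.1 to 70.1 ± 9.66 CPM (+0.68, adjusted p = 0.0316 by limma).

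CITED2, which competes with HIF1A for its coactivators, rose in the nucleus from 14.4 ± 4.84 to 29.0 ± 7.23 CPM (SD, n = 3; +0.92, adjusted p = 0.0412 by limma) and fell in the cytoplasm from 55.0 ± 14.3 to 28.8 ± 6.98 CPM (-0.87, adjusted p = 0.0177 by limma). EGLN1, the main HIF prolyl hydroxylase, was lower in the nucleus than in the cytoplasm after arsenite (9.56 ± 1.43 against 29.2 ± 1.21 CPM, -1.42, adjusted p = 7.06e-05 by limma).

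Of the VEGF family and its receptors 3 of 9 genes had 3'UTR peaks. NRP1, a coreceptor of VEGFA, was lower in the nucleus in mock libraries (5.95 ± 2.73 against 23.0 ± 3.77 CPM, SD, n = 3; -1.67, adjusted p = 0.00117 by limma) and fell in the cytoplasm with arsenite (to 9.96 ± 2.63 CPM, -1.05, adjusted p = 0.00984 by limma). NRP2 and VEGFD stayed below 2 CPM in every group on average and passed no test.

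Among 28 HIF target genes 18 had 3'UTR peaks and 7 of 14 tested were lower in the nucleus in mock libraries, a share at the background of 49.4% for all 3'UTR sums. With arsenite 1 of 14 rose in the nucleus, beside 13.8% of all 3'UTR sums, and 1 fell. In the cytoplasm 5 of 14 fell, beside 18.6% of all. HK2, a hexokinase, rose in the nucleus from 3.78 ± 2.52 to 19.2 ± 1.37 CPM (SD, n = 3; +1.92, adjusted p = 0.00242 by limma) and had 28.5 ± 3.02 and 27.2 ± 4.85 CPM in cytoplasmic mock and arsenite libraries. P4HA1, a collagen prolyl hydroxylase subunit, fell in both fractions, from 55.9 ± 2.99 to 26.5 ± 1.98 CPM in the nucleus (-1.02, adjusted p = 0.000968 by limma) and from 283 ± 19.6 to 105 ± 4.60 CPM in the cytoplasm (-1.41, adjusted p = 9.8e-06 by limma). The nuclear call of P4HA1 was lost in at least 1 single omission, in which no list gene passed as lower there. TFRC, the transferrin receptor, fell in the cytoplasm from 126 ± 17.9 to 32.7 ± 3.31 CPM (-1.87, adjusted p = 4.54e-06 by limma). PGK1, a glycolytic kinase, had a lower nuclear level in mock libraries (3.88 ± 3.03 against 39.3 ± 7.52 CPM, -2.85, adjusted p = 2.42e-05 by limma).

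**Figure D5:**
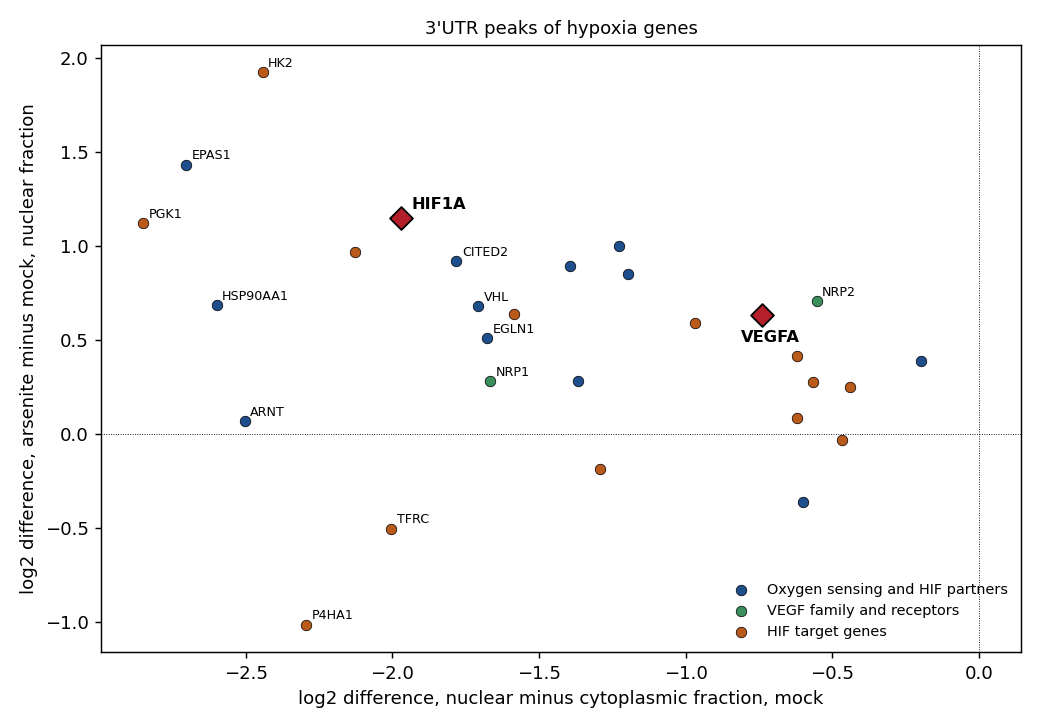
Log2 difference of 3'UTR sums between nuclear and cytoplasmic mock libraries (x axis) and between arsenite and mock nuclear libraries (y axis) for the genes of the 3 lists, with HIF1A and VEGFA as red diamonds. Both axes use the nuclear mock libraries, so the slope of the cloud is not a result. HIF1A lies at -1.97 and +1.15, VEGFA at -0.74 and +0.63, and P4HA1 is the gene lowest on the y axis at -1.02.

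The 3'UTR sums most like HIF1A over the 12 fraction libraries, among 1841 genes with a mean of at least 10 CPM, were those of RC3H1 (Pearson r of log2 values 0.997), DCUN1D4 (0.990), RRP15 (0.989), CBX5 (0.984) and IPMK (0.982). RC3H1, which encodes the RNA-binding protein roquin-1, averaged 34.8, 73.1, 118 and 109 CPM in nuclear mock, nuclear arsenite, cytoplasmic mock and cytoplasmic arsenite libraries. A close match to HIF1A was common, since the fiftieth gene still had r = 0.965. For VEGFA the closest were PPP4R3A (0.889), ITPRID2 (0.859), PDCL (0.855), FMNL2 (0.850) and CECR2 (0.846), and the fiftieth had 0.782. These correlations are descriptions over libraries that share their groups and depth.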

How the data were processed

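HuR CLIP tags in 58 libraries of Huh-7.5 cells were read from 1 combined peak table. Bowtie2, SAMtools, bedtools, HOMER and the build GRCh38.p14 are named in the submitters' processing notes, without versions; other upstream steps are not given in the sources used here. The deposited values are a signal per peak and library, and 100.0% of them are whole tags divided by a library total (within 0.1 tag), so tags were recovered; each column was taken as 1 library, although 6 of the 17 input libraries are labelled All with no replicate number and may be pooled, and the letter S in column names was read as arsenite. The table does not state whether its coordinates count from 0 or 1, and they are printed unchanged. From 395471 lines, 8257 repeated ones were dropped.

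Values of a gene's peaks were summed within each annotation class (30217 sums over 13836 genes), and sums or single peaks were compared with limma 3.58.1 (R 4.3.3; lmFit, eBayes with trend) on log2(value + 2.28 CPM), where 2.28 CPM is the libraries' median value of their lowest peak with a tag. A row was tested when the number of libraries with a tag reached the size of the smaller group, and p-values were Benjamini-Hochberg adjusted over all rows tested, with 0.05 as the threshold. Input and enriched comparisons had the library set, and input also the line, as covariates; all fraction libraries belong to 1 set. Intervals printed with log2 differences come from the limma fit and measure the spread between libraries. Limits from tags cover counting error only.

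edgeR 4.0.16 on the recovered tags called 5983, 1352, 3335 and 1477 class sums (nuclear against cytoplasmic mock and arsenite, then arsenite in cytoplasm and nucleus), against 6155, 1187, 3047 and 1361 by limma; DESeq2 1.42.0 was a further alternative. The scripts were tested on simulated data. Same-numbered libraries did not deviate together (correlations -0.00979 to 0.0306), so replicate numbers were not used as pairs. Counting noise can hide a pairing in such correlations, so they do not exclude one. Of the enriched pairs, 5 agreed within sampling noise over 500 peaks (permutation p from 0.062 to 0.794).

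Peaks named singly are the 5 highest per gene and those past the test; pathway genes named are the 3 highest of each list and, per comparison, the called gene with the largest difference in each direction. The members and lists were chosen with earlier results of these data known.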

Additional observations from a re-analysis of the deposited data

Results flagged for a closer look

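The arsenite difference of HIF1A itself differed between fractions, by an interaction term in limma, in 3 classes: 1.33 log2 units for the 3'UTR, -1.05 for introns and -1.37 for the ncRNA peaks (nuclear minus cytoplasmic).

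In 8 of 23 groups of 4 to 10 input or enriched libraries checked, 1 library stood far from the rest, and all 8 rest on 1 to 3 tags. The general chance rate of about 1 in 20 does not hold for groups with many libraries at 0 and unequal depth. The count of 8 therefore cannot be set against it. HIF1A 3'UTR peaks had 67.8 CPM in G3BP enriched mock library 3, which is 1 tag, and the next library had 6.61 CPM. In NLS enriched arsenite library 2 they had 8.92 CPM (2 tags) and the others none. HIF1A introns had 11.3 CPM (1 tag) in G3BP enriched arsenite library 4, with 1.91 CPM in the next, and 52.9 CPM (2 tags) in NES enriched mock library 1, with 0 in the others. VEGFA 3'UTR peaks had tags in a single library of 4 groups: 2.12 CPM (2 tags) in G3BP enriched mock library 6, 3.92 CPM (3 tags) in G3BP input mock library 3, 26.1 CPM (1 tag) in NES enriched arsenite library 1 and 19.9 CPM (1 tag) in NES enriched mock library 2.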

How the results depend on the processing

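Of 268 alternative values for the 15 fraction results of HIF1A 3'UTR, HIF1A intron and VEGFA 3'UTR sums, 238 kept direction and side of the threshold. The HIF1A ncRNA interaction lost its call in 12 of 22 alternatives (-1.86 to -0.72, adjusted p up to 0.180) and the ncRNA call in mock in 1 of 16 (adjusted p = 0.0578 by limma). Summing all classes replaced the HIF1A 3'UTR differences by -0.48 (arsenite, nucleus), -0.45 (interaction), -0.011 (nuclear against cytoplasmic mock) and -0.46 (the same under arsenite, past the test). The share of all gene totals past the test is not given for these sums. HIF1A 3'UTR under arsenite, nuclear against cytoplasmic, also passed with a pseudocount 4 times larger (-0.50), a stricter filter (-0.65) and edgeR (-0.70). HIF1A introns in mock passed with the larger pseudocount (0.56), no filter (0.66), a stricter filter (0.66), edgeR (0.64) and scaling to tags in peaks (0.65), and did not with TMM (0.34, adjusted p = 0.347 by edgeR) or DESeq2 (0.44, adjusted p = 0.372). DESeq2 took away the HIF1A calls for the nuclear 3'UTR (1.41) and the intron interaction (-0.84), and TMM made that of VEGFA in mock (-1.29). With 1 library left out, values ranged as follows: HIF1A 3'UTR in the nucleus 1.05 to 1.21, introns in the nucleus -0.98 to -0.80, in the cytoplasm -0.010 to 0.43 (negative without cytoplasmic mock library 2), interaction -1.34 to -0.90 and mock 0.51 to 0.95; VEGFA in the cytoplasm -0.37 to 0.081 (positive without mock library 3) and between arsenite fractions -0.10 to 0.19 (negative without nuclear or cytoplasmic arsenite library 1). The HIF1A 3'UTR in the cytoplasm ranged from -0.27 to -0.048, and HIF1A ncRNA peaks between arsenite fractions from 0.15 to 0.51. The VEGFA 3'UTR ranged from 0.41 to 0.83 in the nucleus and from -0.94 to -0.47 between mock fractions. The cause of these moves was not tested.

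With the replicate number as a block, HIF1A introns in mock (0.66, adjusted p = 0.0467 by limma) and the HIF1A 3'UTR between arsenite fractions (-0.65, adjusted p = 0.0433 by limma) passed, and the called HIF1A 3'UTR peak at 61747643 did not (adjusted p = 0.0699 by limma). The labels do not say whether same-numbered libraries are pairs, and a pairing was not excluded.

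Counts of calls over all sums moved by more than 1.5 times, first over other settings and then with a library left out: 6155 became 3388 to 7302 and 3840 to 5156 (mock fractions), 1187 became 601 to 1683 and 155 to 817 (arsenite fractions), 3047 became 2058 to 4121 and 480 to 2977 (arsenite, cytoplasm), and 1361 became 769 to 2401 and 54 to 910 (arsenite, nucleus). The interaction's 3034 became 1923 to 3444 and 2136 to 3369. Among input and enriched comparisons, other settings gave 0 to 815 (input, 0 as reported), 0 to 1013 (NLS against NES, 522), 0 to 612 (G3BP against NES, 71) and 0 to 1068 (arsenite near G3BP, 0). Calls over single peaks moved more: 4437 became 1832 to 24449 and 0 to 16620, 608 became 301 to 17109 and 0 to 57, 1473 became 1404 to 28883 and 0 to 16959, and 372 became 95 to 14267 and 1 to 8614. In mock fractions 55.9% of calls were lower in the nucleus, 75.8% with TMM (which moved the median by -0.18) and 78.5% with DESeq2. Peak motifs and the longer peak window were not run, since no genome was at hand. Depth limits VEGFA and all enriched results, where 1 tag is worth 1.06 to 214 CPM.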
